A study of Homo sapiens with 24 samples.

Results

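BCOR and its partners in the variant Polycomb complex PRC1.1 were followed in nascent RNA after loss of the transcription factor TRPS1. The 10 genes were BCOR, BCORL1, BCL6, PCGF1, RING1, RNF2, RYBP, YAF2, SKP1 and USP7, out of 60605 genes in the deposited table. BCOR was chosen by its measured level, which was lower with dTAG-13 in all 12 pairs of libraries, so its own response is described and carries no test. The other 9 genes were listed for their known function, and all 10 passed the filter on low counts.

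Polycomb repressive complex 1 is a family of enzymes that place ubiquitin on histone H2A and help to keep genes silent. In the variant form PRC1.1, BCOR or its paralog BCORL1 forms the scaffold and PCGF1 binds to it, while RING1 or RNF2 carries the ubiquitin ligase activity. KDM2B, together with SKP1, brings the complex to unmethylated CpG islands. BCOR was first known as a corepressor bound by BCL6, a zinc finger repressor best known in germinal centre B cells.

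PRO-seq (precision run-on sequencing) maps the 3′ ends of RNA still being made, so reads in a gene measure transcription under way. T47D, a luminal breast cancer cell line that expresses estrogen receptor, had been edited to place an inducible degron tag on the endogenous TRPS1 protein. Clones 28, 35 and 39 of this dTAG-TRPS1 line, each grown from edited cells that had already been through an earlier round of cloning, received either DMSO or 100 nM dTAG-13 for 90 minutes in medium with serum and insulin. The degrader dTAG-13 brings a ubiquitin ligase to the tagged TRPS1, which is then destroyed by the proteasome, and the controls carried the same tag. The paper reports that part of the genomic TRPS1 copies in each clone are knocked out. Only the tagged form of the protein is made, so the DMSO cells also carry this loss of copies. Each clone and treatment had 4 replicates, giving 24 libraries in 6 groups, and each replicate was its own round of treatment and harvest within a single day, in which the treated and the control cells were collected at once. No parental cells without the tag were analysed here.

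Total counts per library ranged from 3226718 to 9575803, with a median of 5042122. All 8 luminal markers examined (ESR1, GATA3, FOXA1, KRT8, KRT18, KRT19, PGR and TFF1) were tested, with a summed level of 3628 to 5764 CPM, the read count relative to the library size (the library total for the marker sums and the TMM-scaled size elsewhere). KRT19 was the 1 marker of the 4 sets called with dTAG-13, with a log2 fold change of -0.13 (SE 0.03, adjusted p = 0.035 by edgeR) and a lower level in 11 of 12 pairs. Markers of other cells summed to 17.5 to 30.6 CPM for basal or myoepithelial cells (3 of 5 tested), 11.6 to 23.6 CPM for fibroblasts (2 of 5) and 8.09 to 15.1 CPM for immune and endothelial cells (4 of 5). Nascent TRPS1 RNA ranged from 5183 to 8747 CPM in DMSO and from 6304 to 9296 CPM with dTAG-13. All 12 pairs had the higher TRPS1 level under the degrader, with a log2 fold change of 0.19 (SE 0.083, adjusted p = 0.73 by edgeR) and of 0.20 with the 12 pairs as a replicate block (adjusted p = 0.00066). The degrader acts on the protein and not on the locus, so these levels do not check the depletion.

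BCOR (ENSG00000183337) spans 127.515 kb on the minus strand of chromosome X, at chrX:40049815-40177329 in hg38. No other annotated gene overlaps it on either strand. RefSeq gives it a pair of start sites, and the 250 bases before each are shown because BCOR was the member whose level differed between treatments in every pair. Both are written 5′ to 3′ on the minus strand from RefSeq GRCh38.p14, with matches to the motifs named below in capitals.
BCOR, inner start site, chrX:40146634-40146883: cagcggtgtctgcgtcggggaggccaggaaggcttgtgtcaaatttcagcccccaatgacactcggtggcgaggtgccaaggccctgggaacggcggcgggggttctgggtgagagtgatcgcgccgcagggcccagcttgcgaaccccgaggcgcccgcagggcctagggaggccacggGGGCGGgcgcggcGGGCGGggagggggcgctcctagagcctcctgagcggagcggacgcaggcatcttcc
BCOR, outer start site, chrX:40177278-40177527: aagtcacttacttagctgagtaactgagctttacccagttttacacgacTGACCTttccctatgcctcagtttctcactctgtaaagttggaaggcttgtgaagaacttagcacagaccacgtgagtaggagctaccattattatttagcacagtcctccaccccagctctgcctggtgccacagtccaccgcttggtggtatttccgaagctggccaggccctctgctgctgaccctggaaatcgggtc

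Windows of 300 bases, from 250 before to 50 after a start site, were searched on both strands for 4 kinds of motif. The motifs were GATA sites (AGATAA or TGATAA, also with a final base change as AGATAG and as TGATAG, the family that TRPS1 binds), the estrogen receptor half-site AGGTCA, the BCL6 motif TTCCTAGAA and the GC box GGGCGG. All 10 genes had a window, 15 in all. A GATA match was present in 24.97% of the 35116 windows in the RefSeq table, a half-site in 13.83%, a BCL6 match in 0.373% and a GC box in 44.95%. Neither window of BCOR held a GATA match. The inner window, with 69.33% G and C, held 2 GC boxes, and the outer window, with 53% G and C, held 1 half-site (TGACCT on the strand shown, starting at position -201 from the start site). Among the partners GATA letters were found for PCGF1 and USP7, a half-site in 1 of the USP7 windows, and the BCL6 motif was found only at BCL6 itself, in the window of its outer start site. GC boxes were found in 9 windows of 8 of the 10 genes. The sites below show the match of PCGF1, the most upstream GATA match in each of the USP7 windows that held one, and the BCL6 match, in capitals within 30 bases of the minus strand.
PCGF1, chr2:74507872-74507901: aggaggttgaagAGATAAgacccttccctg
USP7, chr16:8936776-8936805: tcctggactgccTTATCTaaattgaggttg
USP7, chr16:8949754-8949783: gcagagatgaagTGATAAggtgtctctgcg
BCL6, chr3:187745419-187745448: tggtgatgcaagaagtTTCTAGGAAaggcc
A match describes the letters in these windows and was not tested as a binding site.

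All members were transcribed in T47D cells, with BCOR giving the most reads per gene and PCGF1 the fewest. Read counts per library were 544 to 2036 for BCOR, 508 to 1525 for USP7 and 336 to 944 for RYBP. They were 262 to 972 for BCL6, 254 to 853 for SKP1, 151 to 672 for YAF2 and 164 to 563 for RNF2. The lowest were those of BCORL1 (84 to 314), RING1 (64 to 229) and PCGF1 (46 to 148), so values of these 3 genes carry the largest counting error. BCOR is a long gene, and counts were made over whole genes with introns, so levels between genes are compared per kilobase of annotated span.

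On that scale PCGF1 had the highest level in DMSO, at 6.34 ± 0.992 CPM per kb (SD, n = 12 libraries of 3 clones). RING1 followed at 5.06 ± 0.481 and BCL6 at 3.86 ± 0.287 CPM per kb. SKP1 stood at 2.98 ± 0.163, USP7 at 1.98 ± 0.102 and BCOR at 1.81 ± 0.195 CPM per kb. The lower part of the order was RYBP at 1.3 ± 0.135, RNF2 at 0.95 ± 0.0781, YAF2 at 0.807 ± 0.137 and BCORL1 at 0.416 ± 0.0679 CPM per kb. PCGF1, RING1, BCL6 and SKP1, the highest in this order, also had the shortest spans, at 2.653, 4.223, 24.349 and 28.03 kb. Reads near a start site were not counted apart, and the part of gene length in this order was not tested. Neighbours whose library ranges overlapped were PCGF1 and RING1, RING1 and BCL6, USP7 and BCOR, BCOR and RYBP, RYBP and RNF2, and RNF2 and YAF2. The scaffold BCOR and its paralog BCORL1 did not overlap, at 1.44 to 2.14 against 0.294 to 0.493 CPM per kb. SKP1 is uncertain, because another annotated gene on its strand (ENSG00000272772) covers 70.9% of it and reads in the shared stretch are counted in both.

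BCOR was lower with dTAG-13 in each clone and each pair, which is the property it was chosen for. In Clone 28 it was at 248.6, 218.7, 255 and 234.3 CPM in DMSO replicates 1 to 4 and at 213.5, 188.6, 207.3 and 219 CPM in the dTAG-13 libraries of the same numbers. Clone 35 had 272.5, 221.2, 246.3 and 253.8 CPM in DMSO and 225.8, 192.5, 213.1 and 236.3 CPM with dTAG-13. Clone 39 had 214.7, 184, 211.4 and 213.8 CPM in DMSO and 192.5, 152.9, 169.9 and 179.8 CPM with dTAG-13. Within every clone the ranges of the treatments overlapped, because the DMSO library of replicate 2 lay below at least 1 dTAG-13 library of another number, whereas within a number the dTAG-13 library was the lower of the pair throughout.

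**Figure D1:**
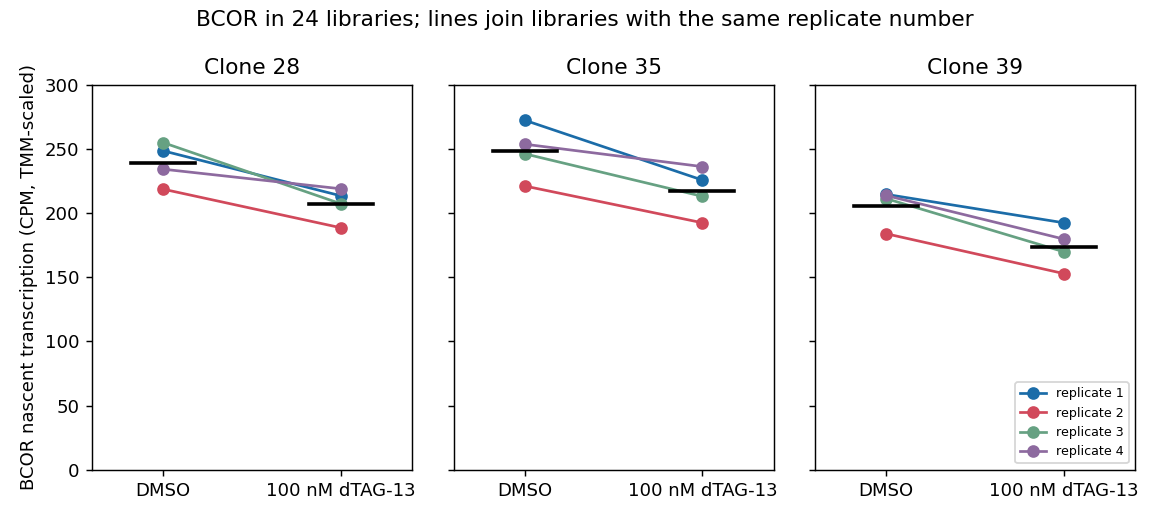
BCOR level in CPM (TMM-scaled, axis from 0) in DMSO and 100 nM dTAG-13 for Clones 28, 35 and 39; each point is 1 library, lines join libraries with the same replicate number and black bars are the means of 4. All 12 lines slope down, and replicate 2 is the lowest line in each clone.

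The mean of BCOR went from 239.2 ± 16.2 to 207.1 ± 13.2 CPM in Clone 28 (SD, n = 4 each), from 248.4 ± 21.2 to 216.9 ± 18.8 CPM in Clone 35 and from 206 ± 14.7 to 173.8 ± 16.7 CPM in Clone 39. Over the 3 clones the log2 fold change was -0.22 with a standard error of 0.042, a level 0.861-fold that of DMSO. With the 12 pairs as a replicate block the standard error was 0.026. In the single clones the log2 fold changes were -0.21 (SE 0.075), -0.19 (SE 0.074) and -0.24 (SE 0.076) for Clones 28, 35 and 39. The 12 pair differences ran from -0.32 to -0.097 with a mean of -0.22 and an SD of 0.07 on the log2 scale. The smallest belonged to replicate 4 of Clone 28 (-0.097) and of Clone 35 (-0.10), and the greatest to replicate 3 of Clone 39 (-0.32) and of Clone 28 (-0.30). Of the 22326 genes tested, 44 were lower in all 12 pairs (0.197%). Among the members the next after BCOR were BCORL1, BCL6 and USP7, each lower in 8 of 12 pairs. In bulk libraries such as these, a lower level can mean fewer cells transcribing a gene or less RNA per cell, and the 2 cannot be told apart.

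None of the 9 partners passed the threshold of 0.1 for the adjusted p with dTAG-13 (edgeR quasi-likelihood test), in the 3 clones together or in any single clone. Over all genes the share called was 0.551% in the 3 clones together, 0.0537% in Clone 28, and 0% in Clone 35 and in Clone 39. None of the 9 had an unadjusted p under 0.05 in the 3 clones together, beside 1411 of all 22326 genes, and DESeq2 called none either. With the replicate block 1 of the 9 had such a p, BCORL1 (adjusted p = 0.39 by edgeR), beside 2224 of all genes. In the single clones 1 of the 9 had such a p, RNF2 in Clone 35, beside 1078, 646 and 754 of all genes in Clones 28, 35 and 39, and DESeq2 called none there. With the block PCGF1 in Clone 28 also had one (adjusted p = 0.59 by edgeR). The median log2 fold change of the partners was -0.013, beside -0.0018 for all genes tested.

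The paralog scaffold BCORL1 (ENSG00000085185, chrX:129981107-130058071) had the largest difference among the partners, with a log2 fold change of -0.13 (SE 0.084, adjusted p = 0.947 by edgeR) and a 95% interval from -0.30 to 0.047. Its pair differences ran from -0.54 to 0.17, and it was higher in 4 of 12 pairs. In replicate 2 it was lower in all 3 clones by a similar amount, with a mean of -0.27, while in replicate 1 the mean was -0.0031. Without the replicate block the interval of BCORL1 holds the value of BCOR, so these counts cannot say whether the paralogs differed in their response. With the block BCORL1 was at -0.12 (SE 0.055, adjusted p = 0.39 by edgeR) and BCOR at -0.22 (SE 0.026). No interval was computed with the block.

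BCL6 (ENSG00000113916, chr3:187721377-187745725), the repressor that recruits BCOR, had a log2 fold change of -0.054 (interval -0.13 to 0.026). Group means were 94.1, 95.6 and 92.1 CPM in DMSO and 90.8, 93.1 and 87.1 CPM with dTAG-13 for Clones 28, 35 and 39. The means were lower with dTAG-13 in each clone, by less than the SD of the 4 DMSO libraries. PCGF1 (ENSG00000115289, chr2:74505043-74507695), the subunit that defines PRC1.1, had a log2 fold change of 0.0012 with a wide interval from -0.17 to 0.17. It was 0.26 in Clone 28, -0.18 in Clone 35 and -0.06 in Clone 39, and its pair differences spanned -0.37 to 0.52.

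The ubiquitin ligases RING1 (ENSG00000204227, chr6:33208500-33212722) and RNF2 (ENSG00000121481, chr1:185045526-185102603) had log2 fold changes of -0.013 (interval -0.15 to 0.12) and 0.028 (interval -0.062 to 0.12). Both were higher with dTAG-13 in all 4 pairs of Clone 35 and lower in 3 of 4 pairs of Clone 39. YAF2 and SKP1 were also higher in all 4 pairs of Clone 35, and BCOR was lower in all 4. The share of all genes higher in every pair of Clone 35 was not computed. In Clone 35 RNF2 was at 51.3, 49.4, 49 and 50 CPM in DMSO and at 58.9, 52.9, 58.9 and 50.5 CPM with dTAG-13. Its log2 fold change there was 0.15 (SE 0.072, adjusted p = 1 by edgeR). The libraries of the treatments overlapped only in that the lowest dTAG-13 library, 50.5 CPM, lay below the highest DMSO library, 51.3 CPM.

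RYBP (ENSG00000163602, chr3:72371825-72446621) and its paralog YAF2 (ENSG00000015153, chr12:42157104-42238349), which bind RING1 or RNF2 in place of the CBX proteins of canonical complexes, had log2 fold changes of -0.025 (interval -0.12 to 0.07) and -0.012 (interval -0.12 to 0.093). SKP1 (ENSG00000113558, chr5:134148935-134176964), an adaptor that also serves SCF ubiquitin ligases, was the partner with the most pairs in 1 direction, higher in 10 of 12. Its log2 fold change was 0.062 (interval -0.013 to 0.14, adjusted p = 0.91 by edgeR). USP7 (ENSG00000187555, chr16:8892097-8975328), a deubiquitinase that copurifies with PRC1.1, had a log2 fold change of -0.036 (interval -0.10 to 0.03). All 9 intervals are from the fit without the replicate block. Those of BCORL1, BCL6, PCGF1 and RING1 reach -0.13 or lower, and the lower ends for RNF2, RYBP, YAF2, SKP1 and USP7 lie between -0.12 and -0.013.

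**Figure D2:**
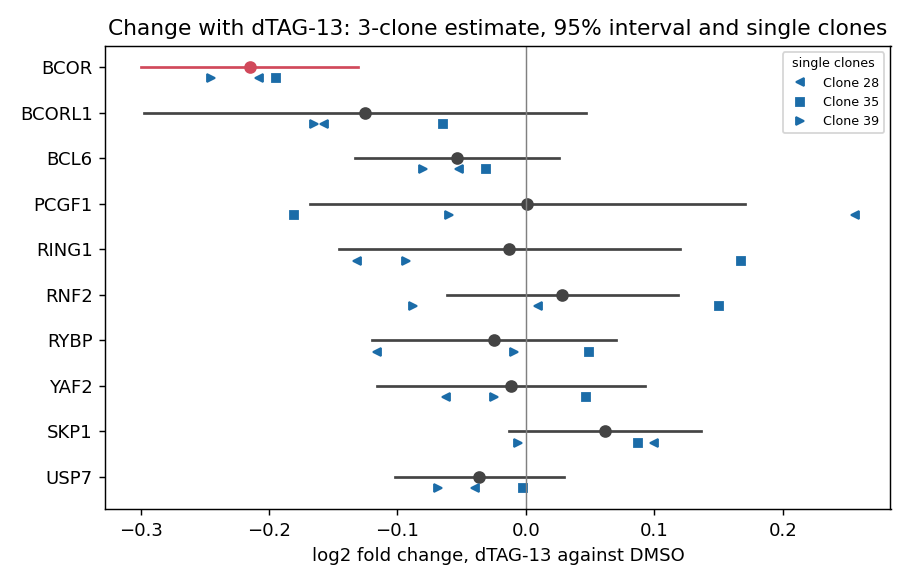
Log2 fold change with dTAG-13 against DMSO (horizontal axis) for the 10 members; large points and bars are the estimate over 3 clones with its 95% interval and small blue symbols are single clones. BCOR lies at -0.22 with all clones together, and the 9 partner intervals, from the fit without the replicate block, cross 0.

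No partner passed the threshold for a difference of its response between clones. The F test of treatment by clone called 0 of 9 partners and 0% of all genes with edgeR, DESeq2 called none of the 9, and 0 of 9 had an unadjusted p under 0.05, beside 407 of all genes. The smallest unadjusted values were those of PCGF1 (0.08) and RNF2 (0.085), each with an adjusted p of 1 by edgeR across all genes. The fits with the 12 pairs as a replicate block also called 0 of 9 partners, in the 3 clones together (2.33% of all genes, 0.932% lower), in Clones 28, 35 and 39 (1.18%, 0.0941% and 0.0717%) and for treatment by clone (0.00448%). With the block PCGF1 had an unadjusted p under 0.05 for treatment by clone (adjusted p = 1 by edgeR). A difference between clones was thus not detected for these genes with 4 libraries a group, and the smallest difference that could be was not computed.

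In DMSO, without the degrader, the clones differed in 2 of the 10 members. The F test over the 3 DMSO groups, which is independent of the treatment contrast, called BCOR (adjusted p = 0.016 by edgeR) and YAF2 (adjusted p = 0.0011), beside 28.5% of all genes. The share among the members was thus no higher than the background. Both genes were lowest in Clone 39. BCOR differed by 0.21 (SE 0.075) between Clone 28 and Clone 39, by 0.27 (SE 0.075) between Clone 35 and Clone 39 and by -0.055 between Clone 28 and Clone 35, on the log2 scale. Adjusted p-values by edgeR were 0.038, 0.0085 and 0.83 for these contrasts, which called 26.7%, 22.6% and 5.25% of all genes. Without Clone 39 DMSO replicate 2, the library with the lowest BCOR in DMSO, the adjusted p of the F test was 0.11. An F test by edgeR in the 12 DMSO libraries, with the replicate number as a term, called both genes, beside 41.4% of all genes. Its adjusted p was 2.0e-07 for BCOR and 9.2e-08 for YAF2.

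YAF2 had larger estimates than BCOR. It was at 71.6, 83.8, 62.6 and 71.5 CPM in the DMSO libraries of Clone 28, at 74.6, 75.4, 65.6 and 66.8 CPM in those of Clone 35 and at 62.9, 59.2, 44.7 and 48.5 CPM in those of Clone 39. The highest library of Clone 39 lay just above the lowest of Clone 28 and below all of Clone 35. YAF2 was 0.42 higher in Clone 28 than in Clone 39 (SE 0.094, adjusted p = 0.00087 by edgeR) and 0.38 higher in Clone 35 than in Clone 39 (SE 0.092, adjusted p = 0.0023), on the log2 scale. The dTAG-13 libraries gave the same call for both genes, with adjusted p-values by edgeR of 0.0036 for BCOR and 0.00058 for YAF2, beside 27.5% of all genes.

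**Figure D3:**
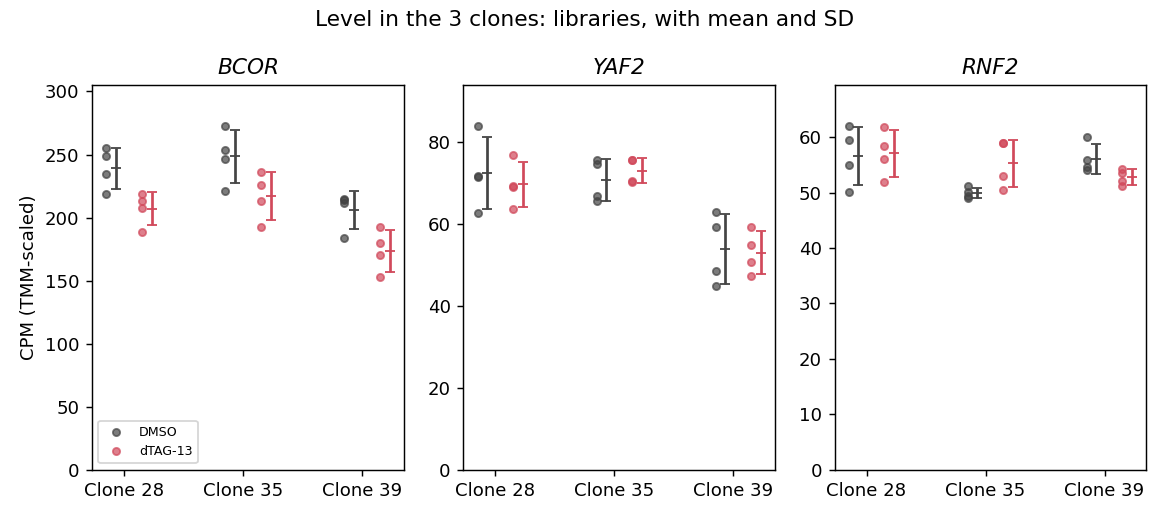
Levels of BCOR, YAF2 and RNF2 in CPM (axes from 0) by clone; points are libraries (DMSO grey, dTAG-13 red) and bars are the mean and SD of 4. BCOR and YAF2 are lowest in Clone 39 under both treatments, and RNF2 in DMSO is lowest in Clone 35.

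The genes examined beside YAF2 were, like it, lowest in Clone 39. Within 1 Mb and with a median of at least 100 counts, ZCRB1 was 0.31 and 0.42 higher in Clones 28 and 35 than in Clone 39, GXYLT1 0.19 and 0.23 higher and PPHLN1 0.19 and 0.19 higher, on the log2 scale. Their adjusted p-values in the F test by edgeR were 0.0056, 0.06 and 0.067, in a test that called 28.5% of all genes. Of the genes beside BCOR, ATP6AP2 was 0.21 and 0.22 higher in the same contrasts (adjusted p = 0.26 by edgeR), and CXorf38, MED14 and USP9X lay between -0.097 and 0.047. Copy number was not measured here, and its part in these differences was not tested. RNF2 had an adjusted p of 0.10 by edgeR between clones in DMSO, just outside the threshold. In the fit of the 12 DMSO libraries with the replicate number as a term, RNF2 was called by edgeR (adjusted p = 0.038), beside 41.4% of all genes. It was also called when Clone 28 DMSO replicate 3 was left out (0.04) or dTAG-13 replicate 3 of Clone 28 (0.096), replicate 4 of Clone 35 (0.099) or replicate 3 of Clone 39 (0.095). Its means were 56.6, 49.9 and 56.2 CPM in Clones 28, 35 and 39. Clone 35 was lowest, and its 4 DMSO libraries lay within 49 to 51.3 CPM.

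Several members differed with the replicate number. In the 12 DMSO libraries, with clone in the model, 6 of the 10 genes differed between the 4 numbers (edgeR F test, adjusted p under 0.1), beside 29% of all genes. They were BCOR, BCORL1, BCL6, PCGF1, RYBP and YAF2, while RING1, RNF2, SKP1 and USP7 were not called. The numbers mark cells handled at different times of the day, and the sources used here do not say whether a number was the same time in every clone. Total counts of the DMSO libraries overlapped between the numbers, from 3626852 to 6332034 for replicate 3 and from 4972292 to 7106656 for replicate 4, for example.

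BCOR was lowest in replicate 2 of all 3 clones, in DMSO (adjusted p = 0.00035 by edgeR) and again in the dTAG-13 libraries (adjusted p = 3e-04, beside 19.4% of all genes). Centred on the clone mean, replicate 2 stood at -0.15 ± 0.02 in DMSO and -0.16 ± 0.024 with dTAG-13 on the log2 scale (SD, n = 3 clones). The other numbers lay between 0.021 and 0.086 in DMSO and between -0.015 and 0.088 with dTAG-13. The paralog BCORL1 had another order, with replicate 1 the lowest.

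BCORL1 was at 22.6, 27.4 and 23.9 CPM in replicate 1 of Clones 28, 35 and 39 in DMSO. In replicate 2 it was at 37.9, 35 and 37.8 CPM, in replicate 3 at 30.1, 34.2 and 34.6 CPM and in replicate 4 at 36.7, 34.2 and 29.6 CPM. All 3 libraries of replicate 1 lay below the other 9, and the adjusted p was 0.00024 by edgeR. With dTAG-13 the adjusted p was 0.094, and replicate 1 was again lowest on average, at 24.8 CPM beside 29.4 to 32 CPM for the other numbers.

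YAF2, RYBP and BCL6 were on average higher in DMSO replicates 1 and 2 than in 3 and 4, and PCGF1 was lower. Replicates 3 and 4 together differed from 1 and 2 by -0.25 for YAF2 (SE 0.053, adjusted p = 0.00014 by edgeR), -0.21 for RYBP (SE 0.049, adjusted p = 0.00064), -0.13 for BCL6 (SE 0.046, adjusted p = 0.025) and 0.34 for PCGF1 (SE 0.099, adjusted p = 0.0054) on the log2 scale. Of all genes 34% were called in this contrast. PCGF1 was at 12.2 and 14.7 CPM in replicates 1 and 2 of Clone 28, 17.6 and 15.7 CPM in those of Clone 35 and 15.2 and 13.4 CPM in those of Clone 39. Replicates 3 and 4 had 18.5 and 16.7 CPM in Clone 28, 19.8 and 20.5 CPM in Clone 35 and 18.3 and 19.4 CPM in Clone 39. Within every clone replicates 3 and 4 both lay above replicates 1 and 2. The calls of BCL6 and PCGF1 over the 4 numbers (adjusted p = 0.049 and 0.044 by edgeR) each depended on single libraries. That of BCL6 was lost without replicate 1 of Clone 35 (0.34), replicate 1 of Clone 39 (0.15) or replicate 4 of Clone 39 (0.15), and that of PCGF1 without replicate 2 of Clone 35 (0.12), all in DMSO.

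With dTAG-13, YAF2 kept its direction and its call (-0.14, SE 0.047, adjusted p = 0.028 by edgeR). RYBP (-0.047, adjusted p = 0.48), BCL6 (-0.0074, adjusted p = 0.94) and PCGF1 (0.12, adjusted p = 0.40) had the same sign and were not called, and SKP1 was called there (-0.11, SE 0.04, adjusted p = 0.049) but not in DMSO. Over the 4 numbers as separate levels the dTAG-13 libraries gave calls for BCOR, BCORL1 and YAF2. DESeq2 called these same 3 genes in DMSO, with adjusted p-values of 0.037, 0.027 and 0.065, and left out RYBP, BCL6 and PCGF1.

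**Figure D4:**
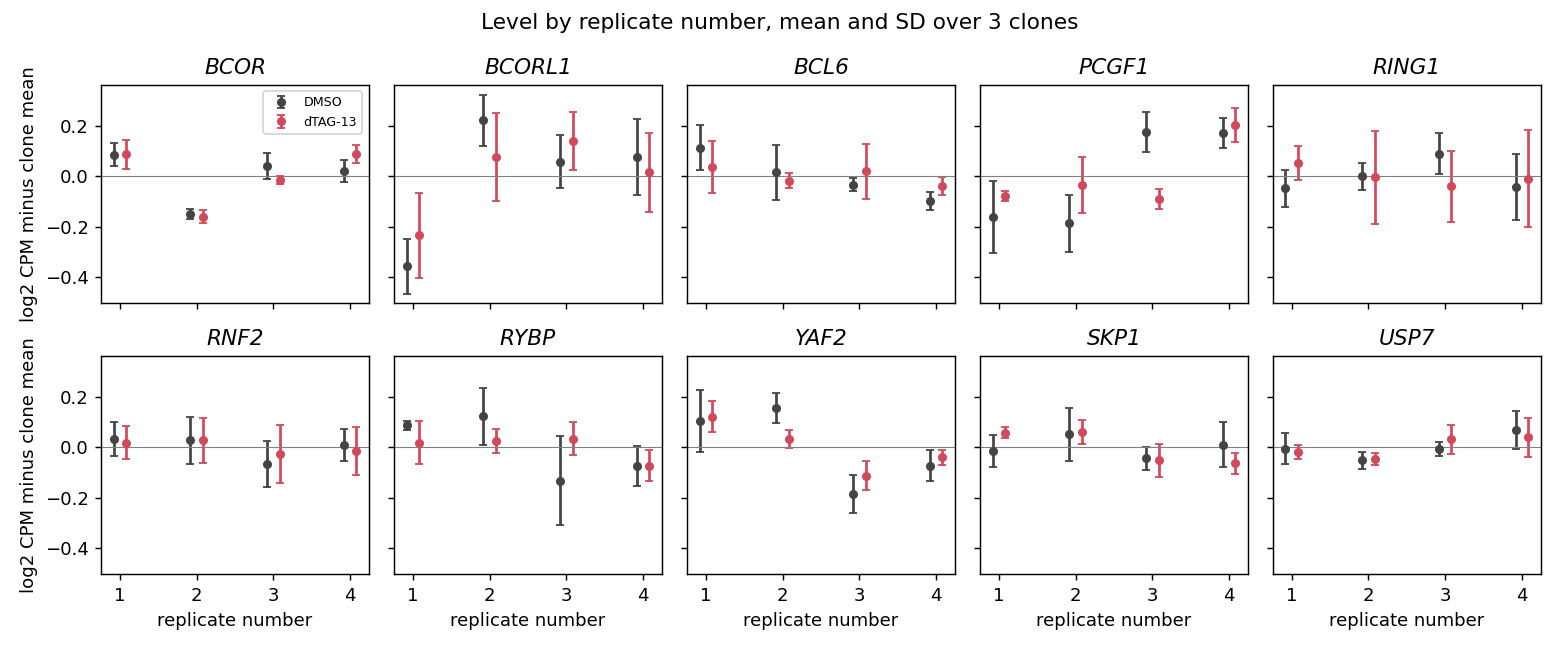
Log2 CPM minus the clone mean (vertical axis) by replicate number for each member; points and bars are the mean and SD over 3 clones, DMSO in grey and dTAG-13 in red. BCOR is lowest in replicate 2 under both treatments, BCORL1 in replicate 1, and YAF2 is lower in replicates 3 and 4.

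Over the 24 libraries, with each clone centred on its mean, the genes whose log2 CPM was most like that of BCOR were NIBAN2 (Pearson r = 0.851), ANO1, a calcium-activated chloride channel (0.827), TLE3, a Groucho-family corepressor (0.819), CPT1A, which admits fatty acids to mitochondria (0.815), and PADI3, a peptidylarginine deiminase (0.807). These were the top 5 of 12563 genes with a mean log2 CPM of at least 4. The libraries share treatment and replicate number, so the correlations are descriptive. Log2 fold changes with dTAG-13 were -0.098, -0.17, -0.12, -0.087 and -0.16 for these 5 genes. The matched profile includes the step of BCOR from DMSO to dTAG-13, so this direction follows in part from how the genes were picked. Among the partners r with BCOR ran from -0.448 for SKP1 to 0.405 for USP7, and it was -0.158 for BCORL1.

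Other genes of the Polycomb and BCL6 pathways, taken from lists of known function, changed in few cases. Of the 19 further PRC1 genes reported 1 fell and 0 rose (edgeR), beside 0.193% of all genes lower and 0.551% in either direction. The median log2 fold change of the list was 1e-04. The gene that fell was AUTS2, a subunit of PCGF3 and PCGF5 complexes linked to active transcription, with a log2 fold change of -0.13 (SE 0.03, adjusted p = 0.033) and a lower level in 12 of 12 pairs. The fit with the replicate block called 2 of these 19, beside 0.932% of all genes lower and 2.33% in either direction. It added PCGF2, also known as MEL18 (-0.13, adjusted p = 0.38 without the block and 0.074 with it). CBX2 had the greatest difference of the list (-0.14) and was not called (adjusted p = 0.85). KDM2B, the subunit that brings PRC1.1 to CpG islands, was at -0.076 (adjusted p = 0.77).

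For the lists that follow, the shares called over all genes were 0.551% without the block and 2.33% with it. None of 11 PRC2 genes was called by edgeR with or without the block. Their log2 fold changes ran from -0.029 for EZH2, the methyltransferase, to 0.021 for AEBP2, with EED and PHF19 at -0.028. Of 6 genes for removal of ubiquitin from histone H2A none was called. BAP1 was at -0.099, and ASXL3 at 0.75 had only 1 to 19 counts per library. None of 9 tested BCL6 target genes was called, PRDM1 at 0.28 with 4 to 19 counts and ID2 at -0.12 being the largest, and 3 more (CCND2, SOCS2 and IRF4) had at most 8 counts in any library.

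Of the 11 genes reported for corepressors that act with BCL6, none was called by edgeR with or without the block. The histone deacetylases HDAC3 and HDAC9 had the greatest differences, at -0.099 (adjusted p = 0.87) and 0.11 (adjusted p = 0.998), and the corepressor NCOR1 was at -0.018. The medians of the PRC2, deubiquitinase, corepressor and target lists were -0.0091, 0.015, -0.015 and -0.015.

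**Figure D5:**
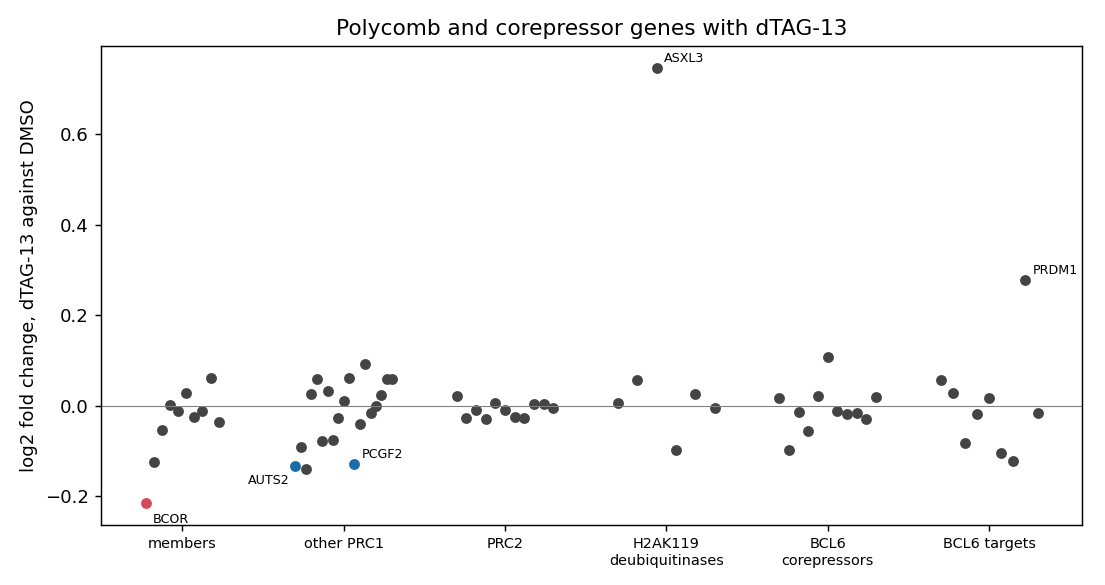
Log2 fold change with dTAG-13 over 3 clones (vertical axis) for the 10 members and for genes of 5 lists; each point is a gene, BCOR is red and genes past the threshold without or with the replicate block are blue. AUTS2 and PCGF2 lie at -0.13, above BCOR at -0.22; ASXL3 and PRDM1 have few counts.

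Of the 6 tested genes that lie wholly within 1 Mb of BCOR none was called by edgeR with or without the block. Nor was USP9X, a deubiquitinase gene that reaches beyond that distance (0.017, SE 0.044). Over all genes the shares called were 0.551% without the block and 2.33% with it. ATP6AP2, a subunit associated with the vacuolar proton pump, lay 0.402 Mb away at 0.11 (SE 0.062), CXorf38 0.45 Mb away at 0.069 (SE 0.051) and MED14, a Mediator subunit, 0.471 Mb away at -0.043 (SE 0.041) on the log2 scale. MED14 had the sign of BCOR, while ATP6AP2, CXorf38 and USP9X did not.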

How the data were processed

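The deposited table holds counts, raw integers of PRO-seq reads for each gene in each library. The authors trimmed adapters with cutadapt 1.8.1, removed duplicates by the unique molecular identifiers, discarded ribosomal reads, aligned with Bowtie2 2.4.4 to hg38 and used SAMtools 1.9 (versions and build from the submitters' processing notes) and counted with bedtools. The annotation used for counting was not given in the sources used here. GENCODE 44 supplied names and coordinates, matching 60463 of the 60605 genes. Pseudogenes inside a host gene had a read density of 0.944 of the host on the same strand (median, n = 140) and 0 on the opposite strand (n = 342), so the counts are read as strand-specific.

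The tests used edgeR 4.0.16 in R 4.3.3. After filterByExpr on the 6 groups (minimum count 10), 22326 genes were scaled by TMM and fitted with robust quasi-likelihood, with clone and treatment for the 3 clones together, the 6 groups for single clones, interactions and clone differences, and clone and replicate number in the 12 DMSO libraries. P-values were adjusted by the Benjamini-Hochberg method across all genes, with a threshold of 0.1. CPM on the log2 scale used a prior count of 2. Libraries pair by replicate number because the labels state simultaneous collection of treatments. Deviations of paired libraries correlated at 0.221 to 0.538. Replicates of a group differed by more than counting error (chi-square per degree of freedom 1.66 to 13.8 over 36 pairs). They are cultures of 1 clone on 1 day, so p-values measure that spread only. Scripts were tested on simulated data.

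The members and the gene lists were chosen with earlier results of these data known, as was the contrast of replicates 3 and 4 with 1 and 2. Genes named are the members, list genes past the threshold with or without the replicate block, the 2 list genes with the greatest change, the 5 genes most like BCOR and tested neighbours with at least 100 counts in the median library. Of the listed genes, 2 are not reported here and were left out of the list counts and medians. KDM2B, AEBP2, NCOR1 and the list genes not tested were named outside this rule, after their values were seen. Alternatives were DESeq2 1.42.0, a fit with the replicate block, scaling by RLE or by library totals, no filter or a stricter one (10 counts in each library), a threshold of 0.05, and leaving out each library or clone. Use of the dTAG-13 libraries in place of DMSO, and the clone differences of neighbouring genes, were added after seeing the data.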

Additional observations from a re-analysis of the deposited data

Results flagged for a closer look

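Over the 10 members in 6 groups of 4 libraries, 4 of 60 groups held a library far from the other 3, where chance flags about 1 in 20 groups, or 3 of 60. BCOR in Clone 39 DMSO replicate 2 was at 184 CPM, with the others at 211.4 to 214.7 CPM. BCORL1 in Clone 35 DMSO replicate 1 was at 27.4 CPM, with the others at 34.2 to 35 CPM. These libraries carry the replicate numbers at which each gene was lowest in DMSO in every clone. SKP1 in Clone 35 dTAG-13 replicate 4 was at 82.8 CPM, with the others at 89.3 to 89.8 CPM. USP7 in Clone 35 dTAG-13 replicate 2 was at 156.5 CPM, with the others at 159.6 to 159.9 CPM, a small gap beside the spread of this gene in the other groups. No partner had a treatment difference that differed between clones by the test of the interaction.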

How the results depend on the processing

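The BCOR difference stayed between -0.23 and -0.20 in every alternative and was -0.22 with the replicate block, which changed no call for the members with dTAG-13. BCOR was chosen for being lower in every pair, so refits of the same libraries could hardly change its sign and are no further support. No partner was called under any alternative, and leaving out single libraries gave 0 in each. With the block 2 of the 19 other PRC1 genes were called in place of 1, beside 2.33% of all genes in place of 0.551%. Members called by replicate number in DMSO went from 6 to 3 with DESeq2, to 3 without Clone 35 and to 3 in the dTAG-13 libraries, and ranged from 5 to 6 without single libraries. Members called between clones ranged from 1 to 3 without single libraries. The cause was not tested. BCL6 lost its call by number with library totals only (adjusted p = 0.26 by edgeR), without a filter (0.36), without Clone 35 (0.20) and without Clone 39 (0.30), PCGF1 without any 1 clone (0.14 to 0.22) and RYBP without Clone 35 (0.19). USP7 gained one with library totals only (0.053), and RNF2 gained one between clones with RLE (0.08).

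Partners that were not called changed sign. PCGF1 was -0.00104 with library totals only, -0.00277 without a filter, -0.0014 with the block and -0.12 without Clone 28. Without Clone 28, RING1 was 0.046, RYBP 0.022 and YAF2 0.015, RNF2 was -0.038 without Clone 35 and RING1 0.025 without Clone 39. Without single libraries PCGF1 ranged from -0.041 to 0.031, RING1 from -0.0397 to 0.0105, RYBP from -0.0497 to 0.0021 and YAF2 from -0.031 to 0.015. Of 1040 alternative values 979 were labelled unchanged. For single genes this meant the same side of the threshold and, for a fold change, the same direction. Counts of calls could differ within a set ratio, and BCOR by less than the SD of its pair differences. The 3 genes with the fewest counts, PCGF1, RING1 and BCORL1, had the widest intervals.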
